A study of Mus musculus with 27 samples.

Results

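Rab GTPases are small membrane proteins that mark the compartments of the cell and direct the traffic between them. A Rab bound to GTP recruits effector proteins that move, tether or fuse vesicles, and it is switched on by activators (exchange factors) and off by inactivators (GTPase-activating proteins). In neurons and glia they carry receptors and the amyloid precursor protein through early, recycling and late endosomes, the Golgi and secretory vesicles. The genes described here were all genes of the deposited expression table whose symbol is Rab, a number and at most 1 further letter, leaving out Rab7, Rab3a, Rab3b and Rab3c. This gave 55 genes out of 26264 symbols.

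Cortical RNA was sequenced from 16-week-old female 5xFAD mice on a C57BL6 background, which carry mutant human APP (Swedish, Florida and London) under the neuronal Thy1 promoter. Vehicle (DMSO and beta-cyclodextrin) or 10 mM of R33 or R55, a pair of compounds given as stabilizers of the retromer, was injected into the cortex of one hemisphere in 500 nL, and a block of cortex was taken from the injected and from the contralateral hemisphere 24 h later. Every group was 5xFAD, and no mice without the transgene were analysed here. There were 27 libraries from 14 mice, 4 given vehicle, 5 given R33 and 5 given R55, and both hemispheres were represented for 13 of them. Libraries are named by the label of the mouse, the treatment and the hemisphere. The retromer retrieves cargo from endosomes, and the comparisons ask whether RNA of the Rabs that act on the same membranes differed between treatments or between hemispheres.

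Expression is given as FPKM, fragments scaled by gene length and by the total of counted fragments, so levels of different genes can be compared per length. Libraries held 15932196 to 38077026 fragments on genes, with a median of 27441308, and the FPKM of Rab6b rests on 17546 to 53178 fragments and that of Rab42 on 15 to 40. Differences are on the scale of log2(FPKM + 1), which understates the change of genes with low FPKM. Tests were limited to genes whose mean level reached 1 FPKM, which left 47 of the 55 Rabs and 12976 genes in all. A gene was called different at an adjusted p-value under 0.05 in limma.

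The labelled tissue was checked by its markers before the Rabs were read. Markers of cortical excitatory neurons summed to 3585 ± 471 FPKM (SD, n = 27), led by Nrgn at 1931 FPKM, and all 8 of them were above the expression filter. Oligodendrocyte markers summed to between 589 FPKM in the vehicle contralateral library of mouse L and 2842 FPKM in the R33 injected library of mouse O, and microglia markers to between 365.6 FPKM in the R55 injected library of mouse Q and 1149 FPKM in that of mouse AA. Tissue next to the cortex was represented unevenly. Choroid plexus and ependyma markers ran from 4.06 FPKM in the R55 injected library of mouse R to 1648 FPKM in the R33 injected library of mouse N, led by Ttr, and striatal markers from 31.7 FPKM in the R55 injected library of mouse AA to 205.6 FPKM in the R33 injected library of mouse N. Of the red blood cell markers Hbb-bs, Hba-a1 and Hba-a2 were listed at 0 in all libraries, and Alas2 ran up to 8.17 FPKM. Summed levels of the other lists ran from 388.3 to 736.9 FPKM for inhibitory neurons, 485.2 to 1362 FPKM for astrocytes, 23.1 to 98.2 FPKM for endothelial cells, 29.2 to 73.0 FPKM for mural cells and fibroblasts and 3.61 to 16.9 FPKM for leukocytes. In a tissue block, fewer cells of a type and less RNA per cell cannot be told apart.

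Some libraries stood apart. The R33 injected library of mouse AD deviated from the mean over libraries by a root mean square of 0.32 on the log2 scale over the 47 Rabs and of 0.41 over all tested genes, the highest of the 27 libraries in both. It was the highest library for Rab5c, Rab8a, Rab9, Rab29 and Rab32, among others, and 31 of its 47 Rabs were above their own mean. The R55 injected library of mouse P deviated by 0.31 over the Rabs but by 0.20 over all tested genes, and its Rab37 level of 7.08 FPKM compares with 1.46 FPKM on average. Mouse labels are of 1 letter (J, L and M for vehicle, K, N and O for R33, P, Q and R for R55) or of 2 letters (AH for vehicle, AD and AE for R33, AA and AB for R55), and this series of the mouse label is treated as a possible batch. Comparisons within each series were chosen after seeing the data.

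The 55 Rabs covered more than 4 orders of magnitude. There were 3 Rabs with a mean of at least 100 FPKM, 29 between 10 and 100 FPKM, 15 between 1 and 10 FPKM and 8 below 1 FPKM. Their means summed to 1770 FPKM, and the 6 most abundant genes made 47.9% of that sum. Rab42, at 1.13 FPKM, lay just inside the expression filter and Rab7b, at 0.983 FPKM, just outside it. The median mean level was 20.3 FPKM over the 47 tested Rabs and 9.32 FPKM over all tested genes.

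Rabs of the endoplasmic reticulum and Golgi made 46.9% of the Rab sum. Rab6b, a form of Rab6 enriched in brain that acts in transport at the Golgi, was the most abundant Rab at 250.1 FPKM, from 196.8 FPKM in the R33 injected library of mouse O to 295 FPKM in the vehicle contralateral library of mouse L. Its close relative Rab6a averaged 194 FPKM and Rab2a, which acts between the Golgi and the endoplasmic reticulum, 128 FPKM. Rab1b and Rab1a, which carry newly made proteins from the endoplasmic reticulum to the Golgi, averaged 91.6 and 76.6 FPKM. Rab18, found on the endoplasmic reticulum and lipid droplets, averaged 37.9 FPKM, whereas the Golgi Rabs Rab30 and Rab43 averaged 5.06 and 4.83 FPKM. Of the 12 Rabs with this role, 11 were tested.

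Recycling Rabs made 20.7% of the sum. Rab14, which acts between the Golgi and endosomes, led them at 88.0 FPKM. Rab11a and Rab11b, the Rabs of the recycling endosome, averaged 49.2 and 18.2 FPKM. Rab35, which returns cargo to the plasma membrane, averaged 44.4 FPKM and Rab4a, the Rab of fast recycling, 30.9 FPKM. The epithelial Rabs of this role, Rab25 and Rab17, chosen after their values were seen, averaged 0.0424 and 0.0099 FPKM and were not tested.

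Early endosome Rabs made 14.4% of the sum, and all 6 were tested. Among the forms of Rab5, which drive the fusion of early endosomes, Rab5c led at 97.05 FPKM, followed by Rab5a at 41.9 FPKM and Rab5b at 34.5 FPKM. The ranges of Rab5a (36.1 to 47.2 FPKM) and Rab5b (29.8 to 37.6 FPKM) overlapped over the libraries, while each Rab5c value, from 83.6 to 134.9 FPKM, lay above both. Rab21, Rab31 and Rab22a, which sort cargo at the same compartment, averaged 33.7, 31.9 and 15.0 FPKM.

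Rabs of secretory vesicles and the plasma membrane made 9.44% of the sum. Rab10 and Rab12, both substrates of the kinase Lrrk2, averaged 51.1 and 50.9 FPKM, which do not differ beyond their spread over libraries (42.1 to 56.2 and 45.0 to 59.4 FPKM). Rab8a, which delivers cargo to the plasma membrane and cilium, averaged 20.8 FPKM, and Rab27b and Rab3d, Rabs of secretory granules, 5.68 and 3.29 FPKM. Rab37, known from secretory granules of blood cells, averaged 1.46 FPKM.

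Late endosome and lysosome Rabs made 4.92% of the sum, and 8 of 12 were tested. Rab9, which takes receptors from late endosomes back to the Golgi, averaged 21.1 FPKM and Rab39b, a neuronal Rab linked to inherited intellectual disability, 15.0 FPKM. Rab36, Rab29, which recruits Lrrk2 to membranes, and Rab32, a Rab of lysosome-related organelles, averaged 4.67, 3.56 and 1.75 FPKM. Rab7b, which acts in transport from endosomes to the Golgi, ranged from 0.461 to 2.31 FPKM. Rabs of the cilium and less studied roles made the remaining 3.63%, among them Rab40c, a subunit of a ubiquitin ligase, at 14.6 FPKM, Rab23, a cilium Rab of Hedgehog signalling, at 6.27 FPKM, and the little studied Rab42.

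**Figure D1:**
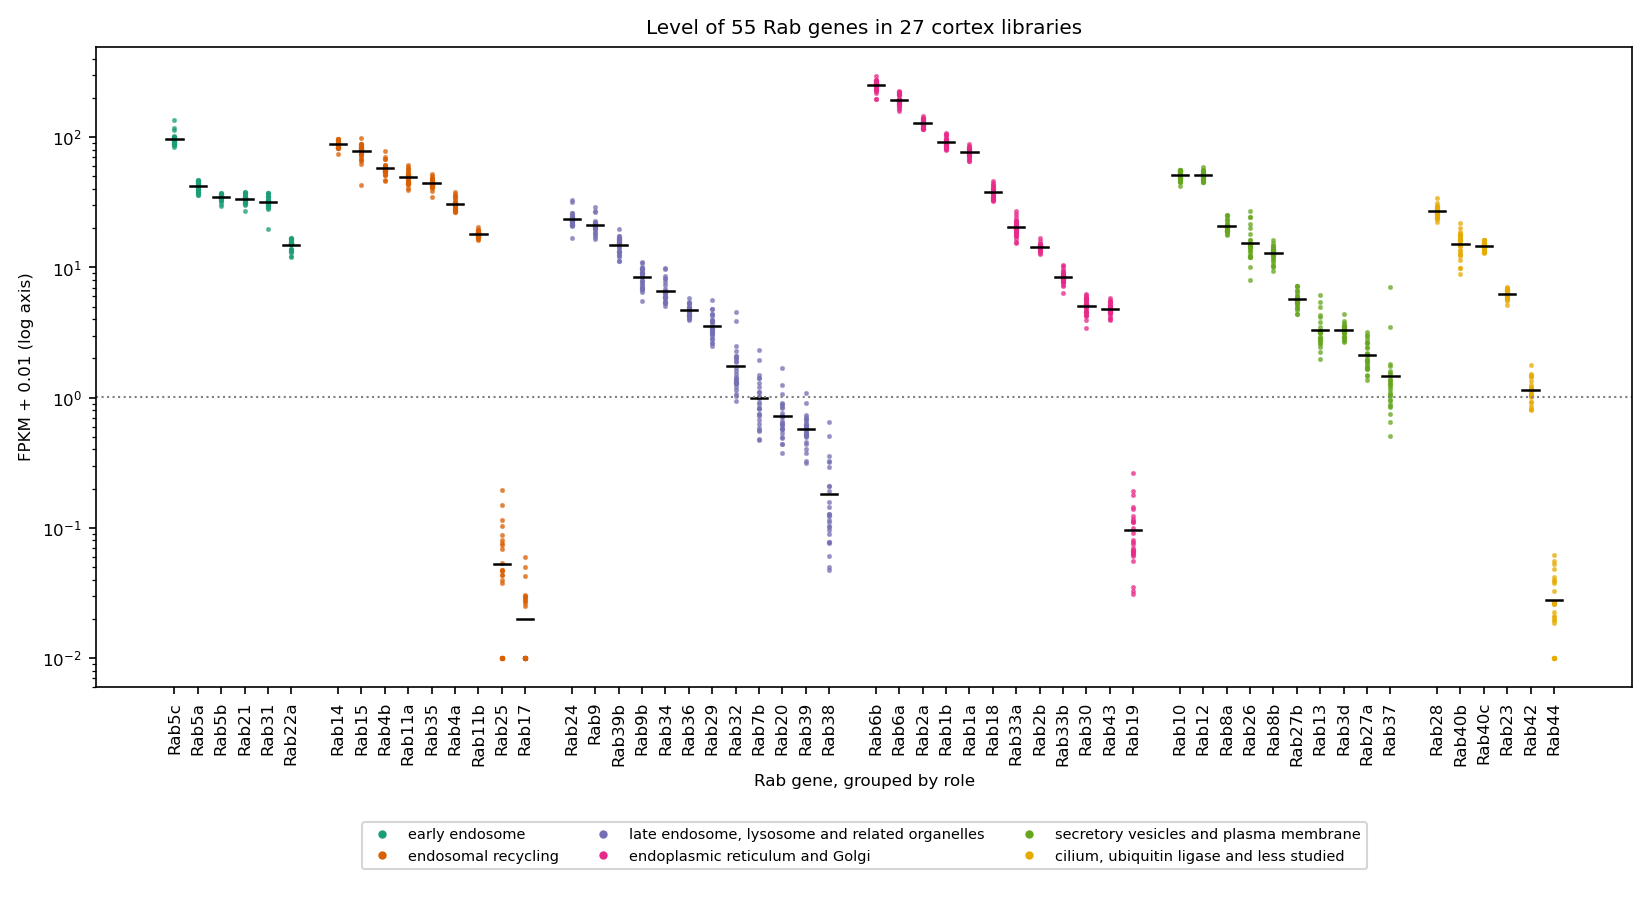
FPKM of the 55 Rabs in each of 27 cortex libraries, on a log axis after adding 0.01. Points are libraries, black bars the means, colours the roles and the dotted line the expression filter of 1 FPKM; Rab6b, Rab6a and Rab2a lie above 100 FPKM and 8 Rabs have a mean below the line.

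Levels of the Rabs varied little between libraries. The median SD of log2(FPKM + 1) over the 27 libraries was 0.138 for the 47 tested Rabs and 0.172 for all tested genes, and 30 of the 47 were below the latter. Rab5b and Rab11b were the least variable, each with an SD of 0.075. The most variable were Rab37, with an SD of 0.47 and a highest over lowest ratio of 14.2, and Rab26, Rab32 and Rab40b, with SDs of 0.37, 0.36 and 0.30, of which Rab26 and Rab40b were chosen after their values were seen. Between mice the median SD was 0.128 for the Rabs and 0.142 for all tested genes, and the hemispheres of a mouse differed with a median SD of 0.146 and 0.194. The summed Rab level lay between 1665 FPKM in the R55 contralateral library of mouse R and 1881 FPKM in the R33 injected library of mouse AD.

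Along the main axis of variation among the Rabs, the first principal component with 23.6% of the variance, the R33 injected library of mouse AD (score 0.61) and the R55 injected library of mouse P (score -0.39) lay at opposite ends. In that library of mouse AD, Rab32 was at 4.51 FPKM, 1.05 above its mean on the log2 scale, Rab29 at 5.59 FPKM and Rab5c at 134.9 FPKM, while the neuronal Rabs Rab39b and Rab6b were at 11.2 and 197.4 FPKM, 0.37 and 0.33 below their means. Microglia markers summed to 904.2 FPKM in the same library, against 631 ± 186 FPKM over all 27 (SD), with C1qa the most abundant. That library also had the highest sum of inhibitory neuron markers (736.9 FPKM). Its level of Alas2, the only red blood cell marker above 0, was the highest too (8.17 FPKM). Excitatory neuron markers summed to 4347 FPKM in it, against 3585 ± 471 FPKM over all 27 (SD). The R33 injected library of mouse AE had a microglia sum of 863.6 FPKM with Rab32 at 1.92 FPKM. In the R55 injected library of mouse AA, which had the highest microglia sum of 1149 FPKM, Rab32 was at 3.89 FPKM and Rab7b at 2.31 FPKM, each among the 2 highest libraries of its gene. In the R55 injected library of mouse P, with a microglia sum of 368.5 FPKM, they were at 1.29 and 0.470 FPKM. The part of these cells in the Rab values was not tested.

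**Figure D2:**
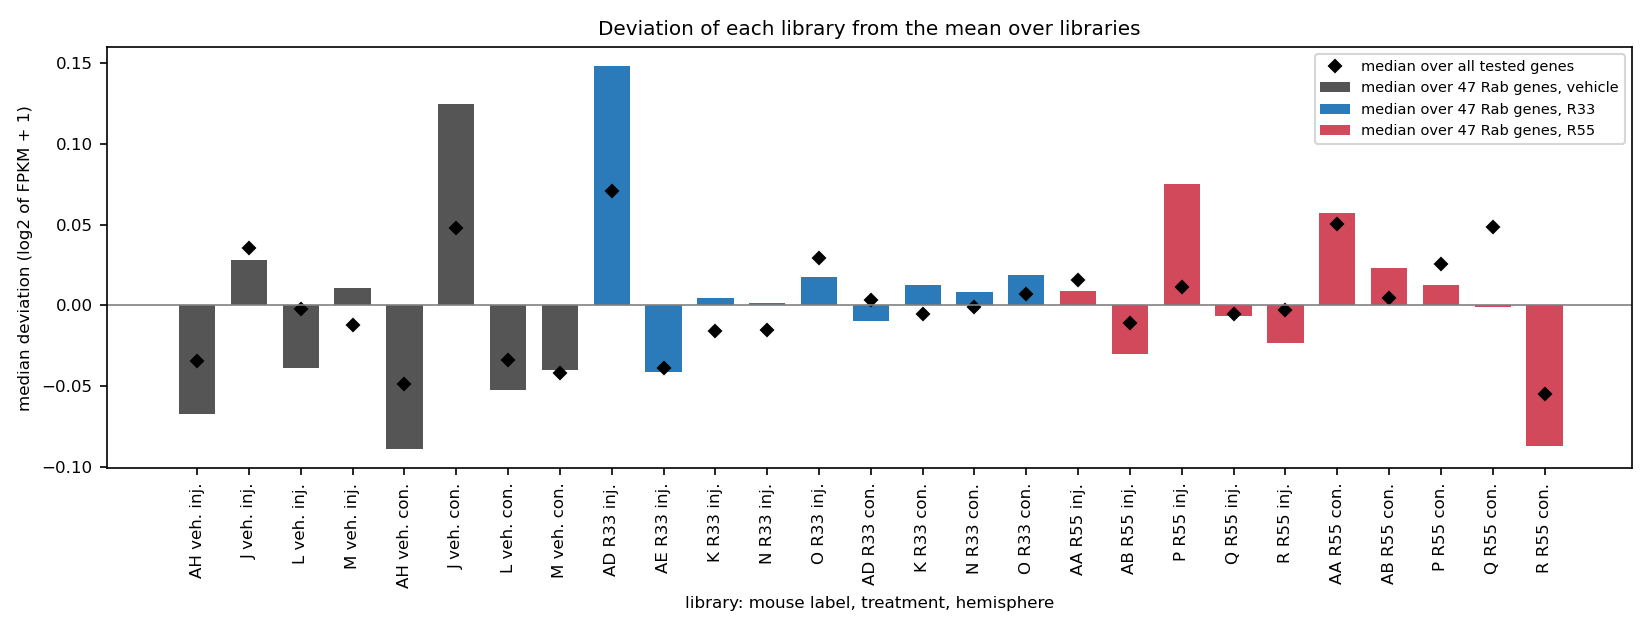
Median deviation of each library from the mean over libraries, on the log2 scale of FPKM + 1, for the 47 tested Rabs (bars, coloured by treatment) and for all tested genes (diamonds). The highest bars are the R33 injected library of mouse AD at 0.15 and the vehicle contralateral library of mouse J at 0.12, and the lowest the vehicle contralateral library of mouse AH at -0.089 and the R55 contralateral library of mouse R at -0.087.

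All 55 Rabs were found in the GENCODE annotation of GRCm39, on 18 chromosomes, with 7 on chromosome 17, 6 on chromosome 9 and 4 on X. Fragments of closely related genes can be assigned to the wrong copy, so the share of 32-base words of each Rab's transcripts that also occur in another gene's transcripts was counted. The median share was 0.872%, although the family arose by duplication. It was above 10% for 3 Rabs, Rab43 (69.8%, with Gm45140), Rab4b (59.4%, with Gm21983) and Rab26 (16.2%), the last 2 chosen after their values were seen, so counts of these 3 are uncertain. The share was 7.27% for Rab42 and 9.7% for Rab5b. Exons of 12 Rabs overlapped a gene on the opposite strand by more than 10% of their length, among them Rab1a (36.7%), Rab10 (22.0%), Rab6a (15.6%) and Rab5c (13.3%). The strand setting of the authors' counting is not given in the sources used here, so fragments of such partners cannot be told apart in these values.

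After R55, no Rab was called different from vehicle controls. Limma called 0 of 47 Rabs (smallest adjusted p = 0.552) and 0.00771% of all tested genes, which is the single gene Ryr2. That gene was not called with the modelled correlation within mice or with 1 value per mouse, where 0 of all tested genes were called (smallest adjusted p = 0.769 and 0.386). The all-gene count depended on the mice and libraries used, with 50 genes called without R33 mouse AD and 12 when only R55 and vehicle libraries were fitted. Before adjustment 2 Rabs, 1 higher and 1 lower, had a p-value under 0.05, which is 4.26% of the Rabs beside 8.45% of all tested genes. Limma voom on fragments called 0 with 2 at the unadjusted level, and the fit with a modelled correlation within mice likewise 0 and 2, while 1 value per mouse gave 0 and 1. In these last fits, which allow for the shared mouse, 519 and 440 of all 12976 tested genes were at the unadjusted level in place of 1096. The unadjusted Rab count was 5 without vehicle mouse J, 4 without vehicle mouse AH and 3 without R55 mouse P (all tested genes 1674, 1566 and 1507). It was 1 without vehicle mouse L or R55 mouse AA or AB (all tested genes 966, 881 and 755). For 42 of the 47 Rabs the 95% interval of the R55 difference lay within 1.25-fold of FPKM + 1 in either direction. It did so for 40 with the modelled correlation and for 39 with 1 value per mouse. For Rabs with low FPKM this limit allows a larger fold of FPKM itself.

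Rab27b, which docks secretory granules and exosome-forming vesicles at the plasma membrane, had the smallest p-value. Its gene lies on chromosome 18, and 762 to 2064 fragments per library were counted on it. In the 8 vehicle libraries it ranged from 5.35 to 7.20 FPKM with a median of 6.17, and in the 10 R55 libraries from 4.36 to 6.03 FPKM with a median of 5.40. All 10 R55 libraries were below the vehicle median, but the groups overlapped. The log2 difference was -0.20 (SE 0.074, adjusted p = 0.552). Fitted by hemisphere it was -0.07 on the injected and -0.32 on the contralateral side, and it was -0.20 among mice with labels of 1 letter and -0.11 among those with 2 letters.

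Rab8a, on chromosome 8 from 72914772 to 72937750, had the next smallest p-value. It ranged from 17.8 to 21.3 FPKM in vehicle libraries (median 19.2) and from 18.6 to 25.4 FPKM in R55 libraries (median 21.3), and 8 of 10 R55 libraries were above the vehicle median. The groups overlapped over most of the vehicle range. The log2 difference was 0.15 (SE 0.062, adjusted p = 0.557), with 0.05 on the injected and 0.26 on the contralateral side. Within the series of the mouse label it was 0.06 for labels of 1 letter and 0.30 for labels of 2 letters, where the only vehicle mouse is AH.

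By role, 5 of the 6 early endosome Rabs had values above 0 after R55, with a median log2 difference of 0.08. Rab5c differed by 0.11 (SE 0.071), Rab31 by 0.10 (SE 0.080), Rab21 by 0.09 (SE 0.054) and Rab22a by 0.07 (SE 0.059), while Rab5a was at 0.003 and Rab5b at -0.03. Of the 7 tested recycling Rabs 6 were above 0, with a median of 0.039, among them Rab35 at 0.09, Rab4a at 0.08, Rab11b at 0.04 and Rab11a at 0.003, and Rab14 was at -0.02. Of the 11 Rabs of the endoplasmic reticulum and Golgi 8 were above 0, with a median of 0.05, from Rab6b at -0.03 to Rab30 at 0.09. The secretory Rabs were split evenly, 5 above and 5 below 0, with Rab10 at -0.04 and Rab12 at -0.004 beside Rab37 at 0.18 (SE 0.21). In the late endosome group 3 of 8 were above 0, with Rab9 at -0.001, Rab39b at -0.09, Rab29 at 0.09 and Rab32 at 0.09 (SE 0.16). Rab23 was at 0.07 (SE 0.047), with all 10 R55 libraries above the vehicle median, and Rab40c at -0.04. None of the values in these groups passed the test, and several depended on 1 mouse. Rab31 was above the vehicle median in only 3 of 10 R55 libraries and was low in 1 vehicle library, the contralateral one of L (19.7 FPKM against 28.1 to 34.6 FPKM in the other 7), and without mouse L its difference was -0.010. Rab37 was at 7.08 FPKM in the R55 injected library of P against 0.743 to 1.53 FPKM in the other 9, and its difference was -0.038 without P. Rab32 was above the vehicle median in 4 of 10 R55 libraries, and its difference was -0.056 without mouse AA. Without mouse L the differences of Rab29 and Rab30 were 0.016 and 0.021. With 1 mouse left out, Rab21 ran from 0.037 (without L) to 0.17 (without J). Rab22a then ran from 0.026 (without L) to 0.12 (without J). Rab5c ran from 0.054 (without AA) to 0.15 (without P) and Rab35 from 0.032 (without J) to 0.12 (without AH).

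Over all 47 Rabs, 29 were above 0 after R55 and the median log2 difference was 0.037. With each library's trend of expression on gene length removed, the Rab median was -0.014 and 19 were above 0. In that fit all tested genes had a median of 0.0022, with 6638 of 12976 above 0. With the trend kept, the median over all tested genes was 0.026 with 60.2% above 0. The tested Rabs are shorter than most tested genes, with a median gene length of 2364 bp against 3149 bp. Without vehicle mouse AH the Rab median was -0.0027 (all tested genes 0.015). It was 0.0048 among mice with labels of 1 letter (all tested genes 0.0081) and 0.077 among those with 2 letters (all tested genes 0.065), where 43 of 47 Rabs were above 0 against the single vehicle mouse AH.

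R33 gave no called Rab either. Limma called 0 of 47 (smallest adjusted p = 0.834) and 0% of all tested genes. Before adjustment 2 Rabs, 1 higher and 1 lower, had a p-value under 0.05, beside 5.87% of all tested genes. By voom 0 were called with 2 at the unadjusted level, and with the modelled correlation within mice 0 and 1, where 292 of all tested genes were at that level in place of 762. This unadjusted count was 10 without vehicle mouse J and 6 without vehicle mouse AH (all tested genes 1655 and 925). It was 3 with AE, O, N or AD of the R33 mice left out (all tested genes 944, 902, 848 and 490). It was 1 with K, M, L, AA, R or AB left out (all tested genes 879, 576, 478, 710, 750 and 686). For 39 of 47 Rabs the 95% interval lay within 1.25-fold of FPKM + 1, and for 37 and 38 in the fits that allow for the shared mouse.

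Rab42, on chromosome 4 from 132027750 to 132030696, had the smallest p-value and the fewest fragments of the tested Rabs, 15 to 40 per library. In vehicle libraries it ranged from 0.922 to 1.51 FPKM (median 1.29) and in R33 libraries from 0.793 to 1.11 FPKM (median 1.01). All 9 R33 libraries were below the vehicle median, and the groups overlapped. The log2 difference was -0.20 (SE 0.071, adjusted p = 0.834), and by voom on fragments, without the added 1, it was -0.38. Rab18, on chromosome 18, ranged from 32.7 to 43.1 FPKM in vehicle libraries (median 34.6) and from 34.8 to 46.2 FPKM in R33 libraries (median 38.7). All 9 R33 libraries were above the vehicle median, which lay close to the lowest vehicle value, so the groups overlapped widely. Its log2 difference was 0.13 (SE 0.064, adjusted p = 0.834).

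The role groups after R33 were compared with the same vehicle mice as after R55, so the values of the compounds are not independent. Of the early endosome Rabs 5 of 6 were above 0 with a median of 0.10, with Rab31 at 0.14 (SE 0.082), Rab22a at 0.11 (SE 0.061), Rab21 at 0.11 (SE 0.055), Rab5c at 0.08 and Rab5a at 0.04, and Rab5b at -0.02. Rab21 was above the vehicle median in all 9 R33 libraries. Its difference ran from 0.052 (without L) to 0.18 (without J) with 1 mouse left out. Rab22a then ran from 0.066 (without L) to 0.16 (without J), and Rab5a from -0.016 (without AH) to 0.081 (without AD). Rab31 was low in 1 vehicle library, the contralateral one of mouse L, at 19.7 FPKM against 32.1 to 34.6 FPKM in the other vehicle contralateral libraries, and the same library had the lowest astrocyte and oligodendrocyte sums, 485.2 and 589 FPKM. The part of those cells in the Rab31 value was not tested. Without mouse L the Rab31 difference was 0.031. All 7 tested recycling Rabs were above 0 with a median of 0.042, and 9 of 11 Rabs of the endoplasmic reticulum and Golgi with a median of 0.055, from Rab6b at -0.08 to Rab18. Secretory Rabs were again split 5 and 5, with Rab8a at 0.10 (SE 0.063) and Rab27b at -0.13 (SE 0.076). Rab8a ran from 0.058 (without AD) to 0.13 (without J) and Rab27b from -0.060 (without AD) to -0.18 (without AH). Late endosome Rabs had 5 of 8 above 0, with Rab29 at 0.10 and Rab9 at 0.09, and the cilium group 2 of 5, with Rab23 at 0.09 and Rab40c at -0.09. Rab29, Rab9 and Rab5c were each highest among R33 libraries in the injected one of AD, at 5.59, 28.9 and 134.9 FPKM. The Rab5c difference was 0.015 without mouse AD, that of Rab9 ran from 0.027 (without AH) to 0.16 (without J) and that of Rab29 from 0.028 (without L) to 0.22 (without J). Over all 47 Rabs 33 were above 0 and the median was 0.041. It was 0.018 without mouse AD and 0.011 without mouse AH (all tested genes 0.0056 and 0.0082). With the length trend removed the Rab median was -0.0054 and 21 were above 0. In that fit all tested genes had a median of 0.0024, with 6652 of 12976 above 0. With all mice and the trend kept, all tested genes had a median of 0.018 with 57.5% above 0. Among mice with labels of 1 letter the Rab median was 0.0047 (all tested genes 0.0011) and among those with 2 letters 0.086 (all tested genes 0.064).

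**Figure D3:**
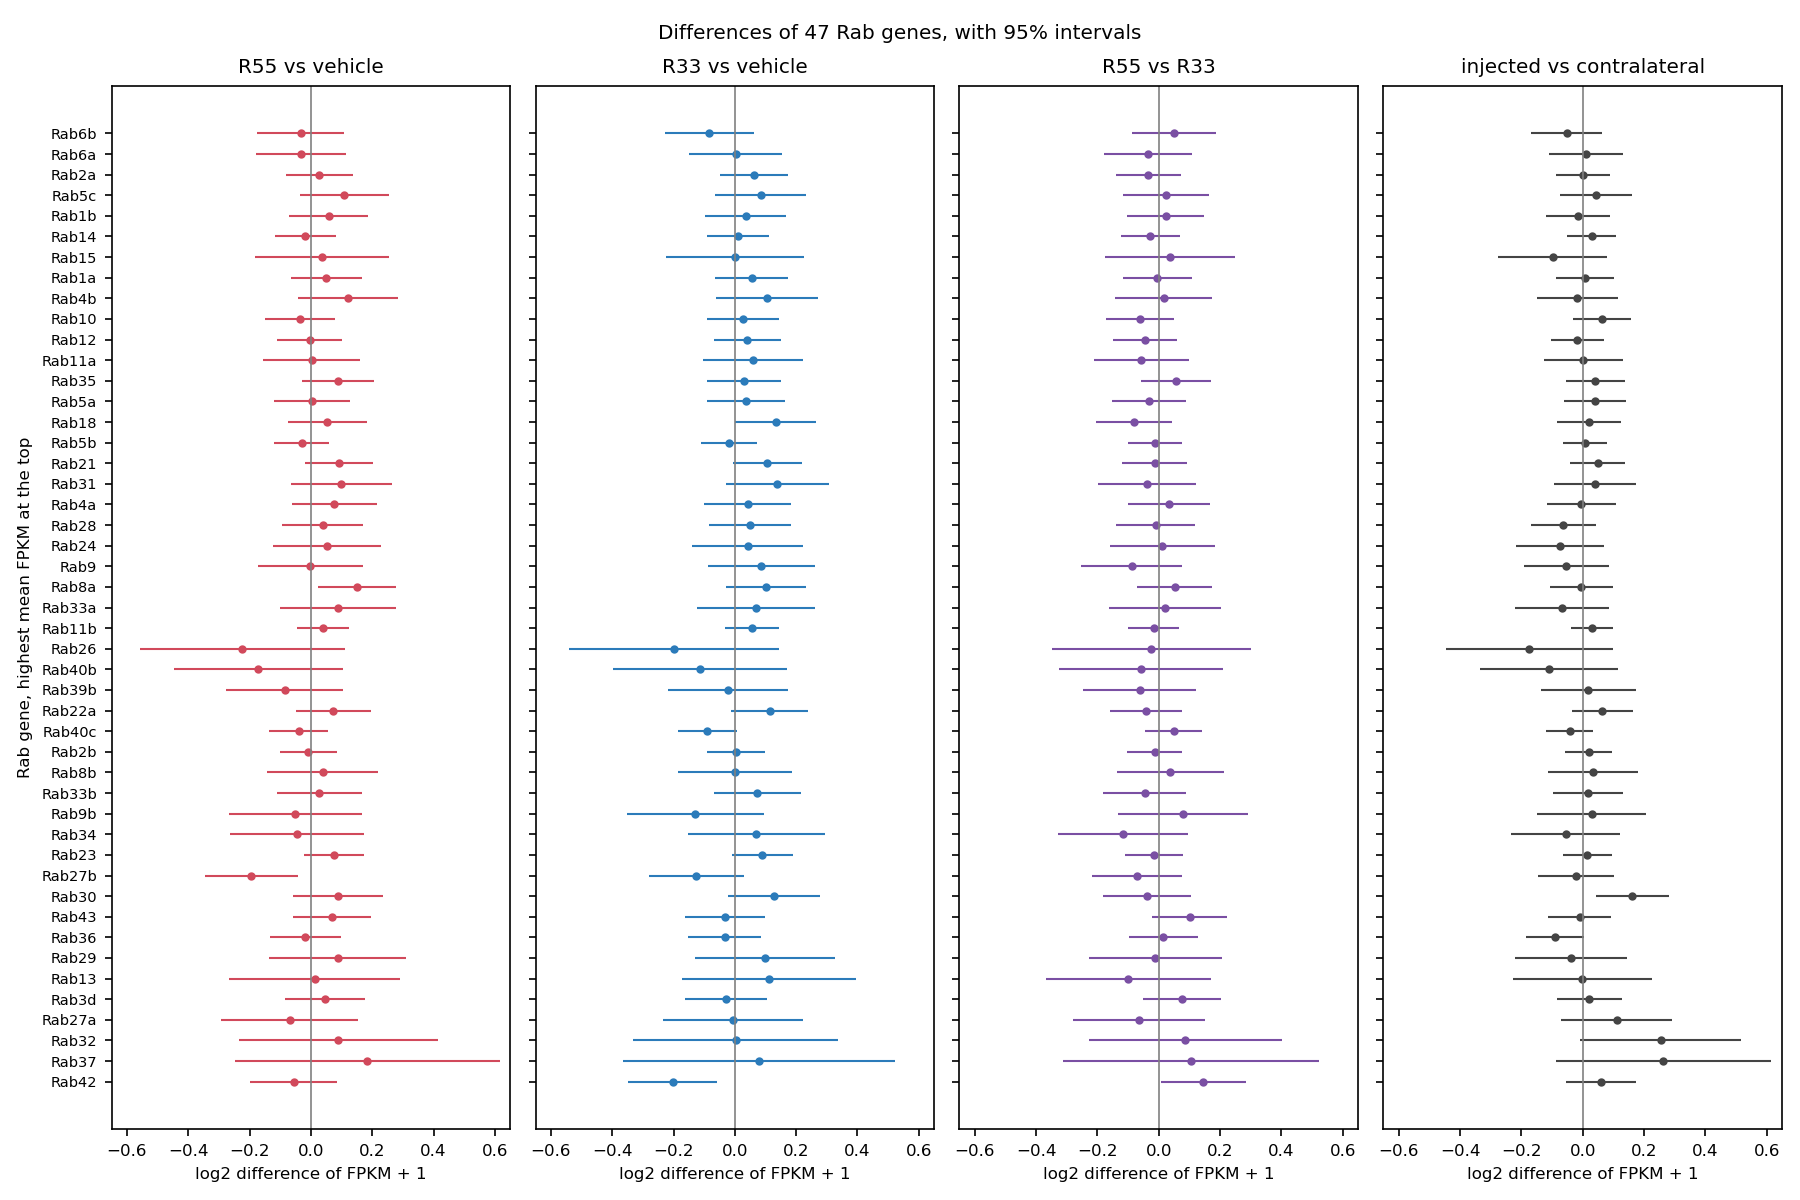
Log2 differences of FPKM + 1 for the 47 tested Rabs, ordered by mean FPKM, in the comparisons of R55 with vehicle, R33 with vehicle, R55 with R33 and the injected with the contralateral hemisphere. Points are limma estimates and lines unadjusted 95% intervals; no Rab passes the adjusted threshold, and Rab37 has the widest interval in each comparison.

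R55 and R33 were injected at the same concentration, in the same volume and for the same time, so their effects on the Rabs can be compared directly, as 1 pair of compounds. No Rab was called different between them in limma (0 of 47, smallest adjusted p = 0.9998), as was 0% of all tested genes. Before adjustment 1 Rab, Rab42, had a p-value under 0.05, beside 1.15% of all tested genes, and voom and the modelled correlation within mice each called 0 with 0 at the unadjusted level. Without R33 mouse AD there were 2 such Rabs, and the count over all tested genes went from 149 to 1338 with 2 genes called. There were 0 such Rabs without R33 mouse K or O or R55 mouse AA (all tested genes 136, 138 and 158). The differences ran from -0.12 to 0.15 on the log2 scale. Their 95% intervals reached 0.137 to either side in the median Rab, and for 41 of 47 Rabs the interval lay within 1.25-fold of FPKM + 1. These intervals treat the hemispheres of a mouse as independent. With the modelled correlation the median Rab reached 0.159 with 40 Rabs within 1.25-fold of FPKM + 1, and with 1 value per mouse 0.171 with 39. The intervals reached from 0.083 to 0.418 to either side over the Rabs, so the size of difference that could be missed depends on the gene.

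Rab42 was at 1.18 ± 0.273 FPKM after R55 (SD, n = 10 libraries of 5 mice) and 0.967 ± 0.116 FPKM after R33 (SD, n = 9 libraries of 5 mice), with 8 of 10 R55 libraries above the R33 median. The log2 difference was 0.15 (95% interval 0.0079 to 0.28), and its highest value, 1.77 FPKM, was in the R55 injected library of mouse P. Rab43 differed by 0.10 (-0.022 to 0.22), Rab3d by 0.07 (-0.053 to 0.20), Rab10 by -0.06 (-0.17 to 0.05) and Rab18 by -0.08 (-0.20 to 0.044). For the Rabs with the smallest p-values between R55 and vehicle, the compounds differed by -0.07 (-0.22 to 0.077) in Rab27b and by 0.05 (-0.072 to 0.17) in Rab8a. Rab27b ran from -0.019 (without N) to -0.14 (without AD) and Rab8a from 0.0085 (without AA) to 0.094 (without AD). The forms of Rab5 differed by 0.02 (-0.12 to 0.16) for Rab5c, -0.03 (-0.15 to 0.088) for Rab5a and -0.01 (-0.099 to 0.075) for Rab5b. Rab32 and Rab37, which varied strongly between libraries, had intervals of -0.23 to 0.40 and -0.31 to 0.52. By hemisphere the sign differed for Rab29 (-0.22 injected, 0.22 contralateral), Rab6b (0.19 and -0.11) and Rab8a (-0.07 and 0.19). The Rab median was -0.013 with 19 of 47 above 0 (all tested genes 0.0048), but it was above 0 in the contralateral hemisphere alone (0.0055), among mice with labels of 2 letters (0.011) and without R55 mouse R (0.0028). Medians over all tested genes in these fits were 0.014, 0.0097 and 0.012.

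**Figure D4:**
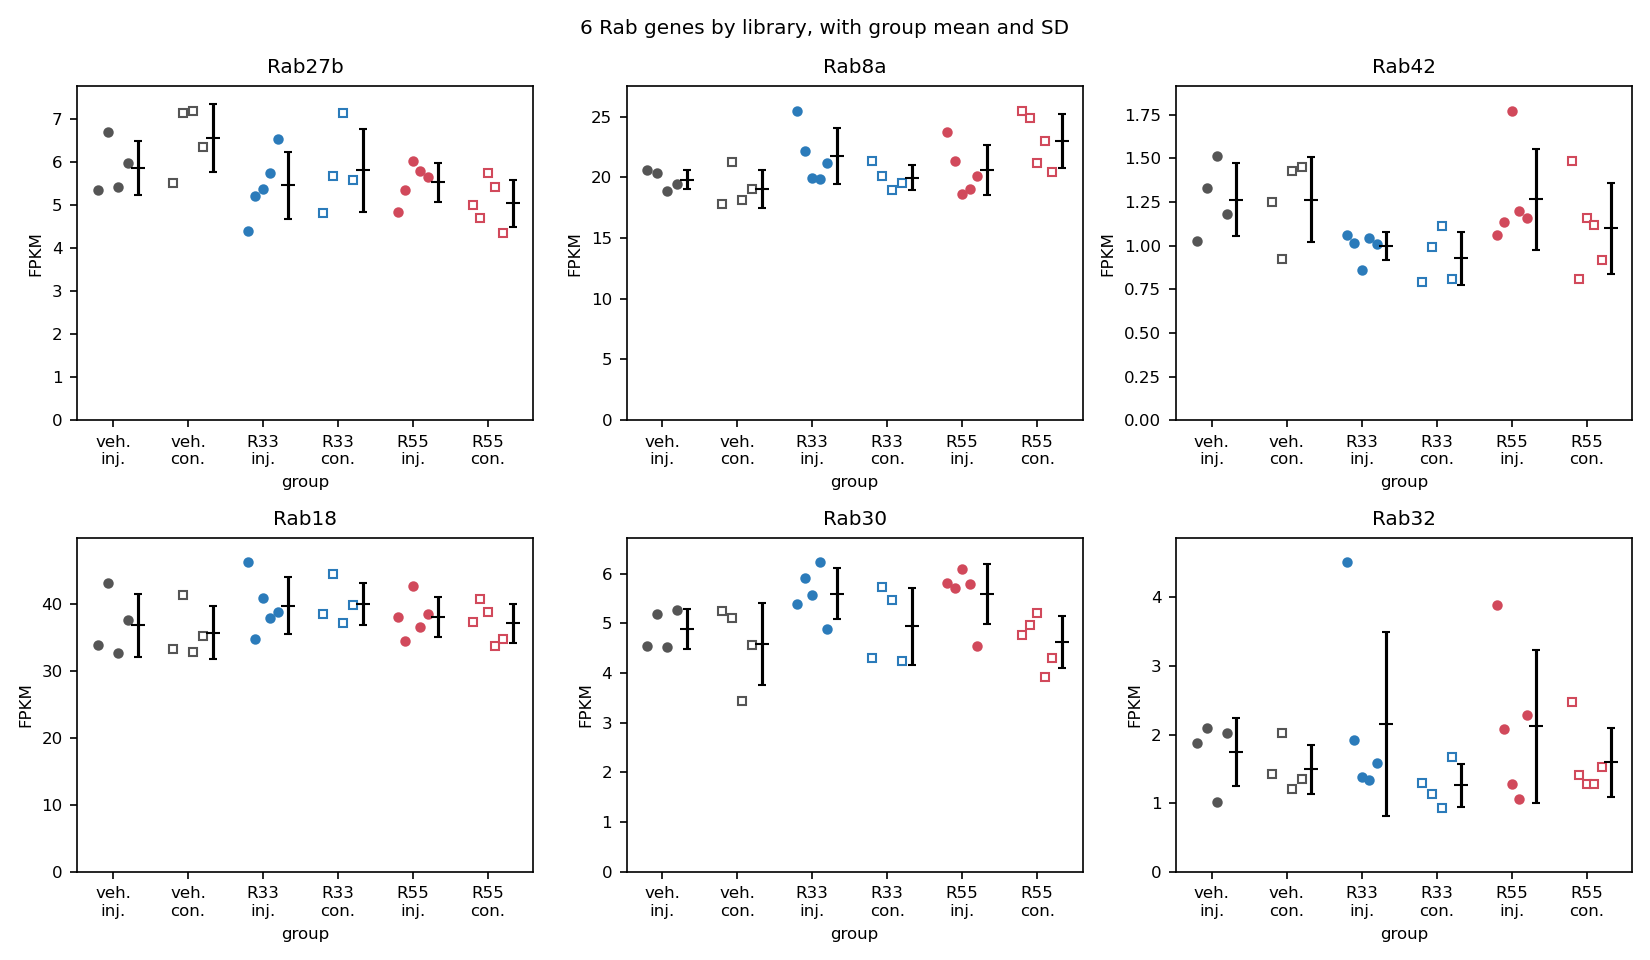
FPKM of 6 Rabs in each library of the 6 groups of treatment and hemisphere. Filled circles are injected and open squares contralateral libraries, bars give the group mean and SD (n = 4 or 5); the groups overlap for each gene, and Rab32 is highest in the R33 injected library of mouse AD (4.51 FPKM) and the R55 injected library of mouse AA (3.89 FPKM).

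Between the injected and the contralateral hemisphere no Rab was called either. Limma called 0 of 47 (smallest adjusted p = 0.9999) and 0% of all tested genes, and 1 Rab had an unadjusted p-value under 0.05, beside 3.47% of all tested genes. By voom 0 were called with 2 at the unadjusted level. A fit with a replicate block for each mouse called 0 with 2 at the unadjusted level (smallest adjusted p = 0.619), and the modelled correlation within mice gave 0 and 3, beside 795 and 896 of all tested genes at that level in place of 450. The unadjusted count was 3 without vehicle mouse L (all tested genes 448). It was 2 without M, P, Q or AD (all tested genes 507, 555, 451 and 688). For 43 of 47 Rabs the 95% interval lay within 1.25-fold of FPKM + 1.

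Rab30, a Golgi Rab on chromosome 7 from 92390811 to 92493743, had the smallest p-value. It averaged 5.06 FPKM over all libraries and was higher in the injected hemisphere in 11 of 13 mice, by up to 0.47 on the log2 scale in mouse Q, and lower in mice AH and K. The log2 difference was 0.16 (SE 0.058, adjusted p = 0.9999), with the replicate block 0.16 (adjusted p = 0.619), and in vehicle mice alone with the block 0.08. Rab32, on chromosome 10 from 10419907 to 10434013, was higher in the injected hemisphere in 10 of 13 mice, with a log2 difference of 0.25 (SE 0.13), and mouse AD alone gave 1.26. Among mice with labels of 1 letter its difference was 0.10 and among those with 2 letters 0.50. Microglia markers were above 0 for 7 of 8 genes in the same comparison, with a median of 0.088 and 0 called, and their part in the Rab32 difference was not tested. Rab37 differed by 0.26 (SE 0.17), with 1.67 in mouse P and 1.57 in mouse J and values from -0.35 to 0.53 in the others. Rab10 was higher in the injected hemisphere in 11 of 13 mice, by 0.06 (SE 0.046), and Rab36 lower in 8 of 13, by -0.09 (SE 0.046).

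All 6 early endosome Rabs had values above 0 in the injected hemisphere, with a median of 0.043, from Rab5b at 0.0074 to Rab22a at 0.06, and none passed the test. By mouse the direction was mixed, with Rab21 higher in 11 of 13 mice, Rab5a in 9, Rab5c in 8, Rab22a and Rab31 in 6 and Rab5b in 4. In the late endosome group 3 of 8 were above 0, with a median of -0.045, and Rab29 and Rab9 were at -0.04 and -0.05. Over the 47 Rabs 27 were above 0, and the median of 0.0084 (all tested genes 0.00097) was below 0 without R55 mouse R (-0.0039), without R33 mouse AD (-6.0e-04) and among mice with labels of 2 letters (-0.0019). Medians over all tested genes in these fits were -0.0024, -0.0011 and -0.011.

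Whether a compound acted differently on the Rabs in the injected hemisphere was tested as an interaction. For R55 limma called 0 of 47 Rabs and 0% of all tested genes, with 0 Rabs at an unadjusted p-value under 0.05 beside 1.84% of all tested genes, and with the replicate block 0 with 3 at the unadjusted level, beside 770 of all tested genes in place of 239. Without R55 mouse P or R there was 1 (all tested genes 247 and 410). With no expression filter there were 2 (568 of 22013 genes). For R33 limma called 0 of 47 and 0% of all tested genes, with 0 Rabs at the unadjusted level beside 0.378%, and 0 and 0 with the replicate block, beside 124 of all tested genes in place of 49. Intervals were wide, reaching 0.29 to either side in the median Rab for each compound. The R55 difference on the injected side minus that on the contralateral side was 0.22 (95% interval -0.019 to 0.46) for Rab22a, 0.25 (-0.046 to 0.55) for Rab27b and -0.21 (-0.45 to 0.029) for Rab8a, and Rab22a was at 0.18 on the injected and -0.04 on the contralateral side. The unlike values of Rab27b and Rab8a on the 2 sides did not pass this test, nor did those of Rab22a.

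The genes that act on the Rabs were read from the lists given with the processing. By limma 0 were called in each list in the 4 comparisons of treatments and hemispheres. Counts and intervals of these lists and of the marker lists treat the hemispheres of a mouse as independent. List counts from fits that allow for the shared mouse are not given here. In the fit with the modelled correlation, 519 of all tested genes were at the unadjusted level after R55 in place of 1096. After R33 there were 292 in place of 762. Of the 10 tested genes for prenylation and recycling of Rabs, 7 were above 0 after R55 and 6 after R33, and 1 and 0 had a p-value under 0.05 before adjustment, beside 8.45% and 5.87% of all tested genes. Gdi2, which extracts inactive Rabs from membranes, was at 91.0 ± 5.14 FPKM in 8 vehicle libraries and at 97.8 ± 5.82 FPKM in 10 R55 libraries (mean and SD), a log2 difference of 0.10 (SE 0.048), with 9 of 10 R55 libraries above the vehicle median. Rabggtb, a subunit of the enzyme that attaches the lipid anchor, differed by 0.11 (SE 0.082) after R55, from 0.050 without mouse L to 0.22 without mouse J. After R33 Rabif, a chaperone of empty Rabs, differed by 0.06 (SE 0.046). Between the compounds Rabggta, the other subunit, differed by 0.08 (SE 0.063).

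Rab activators lay mostly below 0, 20 of 30 tested after R55 with a median of -0.036 and 22 of 30 after R33 with a median of -0.030. The medians over all tested genes were 0.026 and 0.018, and the counts of 20 and 22 share the vehicle mice. These values are from the fit that keeps the length trend. List medians with the trend removed, within a label series or with 1 mouse left out are not given here. There were 2 of 30 at the unadjusted level after R55 and 4 of 30 after R33, all lower, beside 8.45% and 5.87% of all tested genes. Sbf1 and Sbf2, DENN-domain proteins, differed by -0.15 (SE 0.063) and -0.17 (SE 0.081) after R55, and all 10 R55 libraries were below the vehicle median of Sbf2. Rin1, an activator of Rab5 that is abundant in forebrain neurons, was at 16.4 ± 2.67 FPKM in vehicle libraries (SD, n = 8) and 13.7 ± 1.80 FPKM after R33 (SD, n = 9), a log2 difference of -0.23 (SE 0.078, adjusted p = 0.834). When 1 mouse was left out, Rin1 after R33 ran from -0.14 (without M) to -0.28 (without AH). Sbf1 after R55 ran from -0.083 (without M) to -0.18 (without J), and Sbf2 from -0.12 (without M) to -0.22 (without L). Dennd1a, an activator of Rab35, differed by 0.07 (SE 0.048) between R55 and R33. In the injected hemisphere Dennd6b was lower in 12 of 13 mice, by -0.26 (SE 0.082, adjusted p = 0.9999), and Hps1, part of the activator of Rab32, in 8 of 13, by -0.15 (SE 0.066).

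Rab inactivators were spread around 0, with 15 of 35 above 0 after R55 (median -0.0067, 1 at the unadjusted level) and 16 of 35 after R33 (median -0.0071, 1), beside the same shares of all tested genes. Rabgap1l differed by -0.21 (SE 0.098) after R55 and -0.19 (SE 0.10) after R33 (-0.073 without mouse AD), and Rab3gap2, part of the complex that acts on Rab3 and Rab18, by -0.12 (SE 0.066) after R55. Sgsm1 was at 16.4 ± 3.09 FPKM in vehicle libraries (SD, n = 8), 14.0 ± 2.29 FPKM after R33 (SD, n = 9) and 16.2 ± 1.75 FPKM in 10 R55 libraries (SD), and the compounds differed by 0.20 (95% interval 0.015 to 0.39, adjusted p = 0.9998). Sgsm2 differed by 0.12 (SE 0.082) between the compounds. In the injected hemisphere Tbc1d15 and Rab3gap1 differed by 0.09 (SE 0.055) and 0.04 (SE 0.038).

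Of the 47 tested Rab effectors 22 were above 0 after either compound, with medians of -0.0014 and -0.0026, and 5 after R55 (4 higher, 1 lower) and 0 after R33 had a p-value under 0.05 before adjustment, beside 8.45% and 5.87% of all tested genes. Ndel1, a partner of dynein, was at 40.8 ± 2.63 FPKM in 8 vehicle libraries and 45.4 ± 2.84 FPKM in 10 R55 libraries (mean and SD), a log2 difference of 0.15 (SE 0.055, adjusted p = 0.552), and the compounds differed by 0.10 (SE 0.054). Myo5b, a motor recruited by Rab11, differed by -0.48 (SE 0.19, adjusted p = 0.557) after R55 and was variable in vehicle libraries, at 5.39 ± 2.55 FPKM (SD, n = 8). Its difference ran from -0.31 (without J) to -0.65 (without AH). Rab11fip3 and Ankfy1, effectors of Rab11 and Rab5, differed by -0.11 (SE 0.060) and -0.12 (SE 0.062) after R33. Rab11fip3 ran from -0.063 (without AD) to -0.17 (without J) and Ankfy1 from -0.061 (without AD) to -0.14 (without O). Ehbp1l1 differed by 0.13 (SE 0.098) between the compounds. Vps41 and Vps39, subunits of the HOPS complex that tethers late endosomes and lysosomes, were higher in the injected hemisphere in 12 and 10 of 13 mice, by 0.08 (SE 0.032) and 0.08 (SE 0.038).

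The list for Rab phosphorylation held 6 tested genes, and all 6 were above 0 after R55, with a median of 0.069 and 0 at the unadjusted level, while 4 of 6 were above 0 after R33 with 1 at that level. Over all tested genes 60.2% and 57.5% were above 0, and 8.45% and 5.87% were at the unadjusted level. Stk38l differed by 0.07 (SE 0.045) after R55 and 0.11 (SE 0.046) after R33, and Tbk1, a kinase of Rab7, by 0.10 (SE 0.062) after R55. Ppm1h, a phosphatase that removes the phosphate Lrrk2 puts on Rabs, differed by -0.12 (SE 0.075) after R33 and by 0.17 (95% interval 0.020 to 0.31) between R55 and R33. Ppm1m differed by 0.08 (SE 0.089) between the compounds, and by -0.13 (SE 0.075) in the injected hemisphere, where Stk38 differed by -0.11 (SE 0.058).

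Of the marker lists 0 genes were called in the same 4 comparisons by limma, but several lists lay on 1 side of 0. All 7 oligodendrocyte markers were above 0 after R55 (median 0.15) and after R33 (median 0.29), led by Mbp. Their R55 direction rested on 1 vehicle library, the contralateral one of mouse L at 589 FPKM against 1155 to 2450 FPKM in the other 7, and on the injected side the mean sum after R55 (1381 FPKM) was below that of vehicle (1576 FPKM). All 5 endothelial markers, led by Cldn5, were below 0 after R55 (median -0.14) and R33 (median -0.19). Their sums went with the label series, at 23.1 to 38.5 FPKM in libraries with labels of 2 letters, which include 1 of 4 vehicle mice but 2 of 5 in each compound group, and 37.7 to 98.2 FPKM in the others. Among labels of 1 letter the groups overlapped, at 54.4 to 67.6 FPKM in vehicle, 46.2 to 98.2 FPKM after R55, with both libraries of mouse P below the lowest vehicle sum, and 37.7 to 66.1 FPKM after R33. Of 8 microglia markers 7 were above 0 after R55 (median 0.082) and 5 after R33 (median 0.033). Astrocyte markers, led by Slc1a2, had 5 and 4 of 6 above 0, inhibitory neuron markers, led by Sst, 5 and 6 of 6, and excitatory neuron markers 4 and 3 of 8. For mural cells and fibroblasts, led by Rgs5, 4 and 3 of 6 were above 0, and of 8 leukocyte markers, led by S100a9, 3 were tested with 2 above 0 after each compound. Alas2, the only tested red blood cell marker, differed by 0.55 and 0.39. All 4 choroid plexus and ependyma markers and all 5 striatal markers, led by Ppp1r1b, were below 0 after R55 (medians -0.55 and -0.26) and above 0 after R33 (medians 0.51 and 0.17). In vehicle mice 1 library stood out in each, the contralateral one of J for choroid plexus (1131 FPKM against 6.81 to 153.8 FPKM in the other 7) and the injected one of L for striatum (149.6 FPKM against 38.6 to 54.0 FPKM). After R33 the choroid plexus sum was at least 411.4 FPKM in 4 of 9 libraries, from K, N and O, and the striatal sum was 205.6 FPKM in the injected library of N against 32.5 to 69.1 FPKM in the other 8.

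Between R55 and R33 the markers of choroid plexus and ependyma (median -1.02, 3 of 4 at the unadjusted level), striatum (median -0.50) and oligodendrocytes (median -0.12) were all below 0. All 8 microglia markers (median 0.091), all 6 of mural cells and fibroblasts (median 0.20, 1 at that level) and the 3 tested leukocyte markers (median 0.074) were above 0. Between hemispheres all 5 endothelial markers were below 0 on the injected side (median -0.12), and all 7 oligodendrocyte markers (median 0.074) and the 3 leukocyte markers (median 0.13) above it. The part of these lists in the Rab values was not tested.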

How the data were processed

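RNA of a block of cortex from each hemisphere was made into stranded polyA libraries by the authors, sequenced paired-end on a NextSeq and aligned with HISAT2 to GRCm39. A table of FPKM for 26264 symbols in 32 libraries was deposited by the authors, who tested with DESeq2. The counting tool, annotation and strand setting are not given in the sources used here. One leftover header line per library, 32 in all, was dropped, and 5 libraries outside the sample list that was followed were not used. Fragments were recovered from FPKM, with 100% of values whole within 0.01, at 15932196 to 38077026 per library, so that 1 fragment on a gene of 2000 bp is 0.0131 to 0.0314 FPKM.

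The model in limma 3.58.1 (R 4.3.3, trend in eBayes, Benjamini-Hochberg over all tested genes) held treatment and hemisphere on log2(FPKM + 1) for genes with a mean of 1 FPKM or more. The limma functions were tested on simulated data with independent libraries and larger changes than those of the Rabs. That test gives no error rate or power for hemispheres that share a mouse. Tables and figures were made with Python 3.11.15, numpy 2.4.6, pandas 2.3.3 and matplotlib 3.10.9, and statmod 1.5.0 served the modelled correlation. Both hemispheres come from the same mouse by its label. Over all tested genes, deviations from group means correlated between the hemispheres of a mouse with a mean of 0.394 (-0.0787 to 0.648, 13 pairs). Between different mice the mean was -0.106 (48 pairs). Fits with the mouse as a replicate block were therefore run as alternatives, beside voom on fragments, median-of-ratios scaling, no filter, an added 0.1, 1 value per mouse, each hemisphere alone, only the treatments compared, the series of the mouse label, the length trend removed and each mouse left out. The members and lists were chosen with earlier results of these data known.

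Rabs were named when among the 6 most abundant, among the 5 with the smallest unadjusted p-value in any of the 4 comparisons, or standing for a step of transport. In each list below the 2 genes with the smallest unadjusted p-value per comparison were named. The list of prenylation and recycling of Rabs held Gdi2, Chm, Chml, Rabggta, Rabggtb, Rabif, Rabac1, Yipf1, Yipf2. The list of Rab activators held Rabgef1, Rin1, Rin2, Rin3, Als2cl, Gapvd1, Mon1a, Mon1b, Ccz1, Rab3il1, Rab3ip, Rgp1, Ric1, Dennd1a, Dennd1b, Dennd1c, Dennd2a, Dennd2b, Dennd2c, Dennd2d, Dennd3, Dennd4a, Dennd4b, Dennd4c, Dennd5a, Dennd5b, Dennd6a, Dennd6b, Madd, Sbf1, Sbf2, Hps1, Hps4, Mss4. The list of Rab inactivators held Tbc1d1, Tbc1d2, Tbc1d2b, Tbc1d4, Tbc1d5, Tbc1d7, Tbc1d8, Tbc1d8b, Tbc1d9, Tbc1d9b, Tbc1d10a, Tbc1d10b, Tbc1d10c, Tbc1d12, Tbc1d13, Tbc1d14, Tbc1d15, Tbc1d16, Tbc1d17, Tbc1d19, Tbc1d20, Tbc1d22a, Tbc1d22b, Tbc1d23, Tbc1d24, Tbc1d25, Tbc1d30, Rab3gap1, Rab3gap2, Rabgap1, Rabgap1l, Evi5, Evi5l, Usp6nl, Sgsm1, Sgsm2, Sgsm3. The list of Rab effectors held Eea1, Rabep1, Rabep2, Rbsn, Appl1, Appl2, Ankfy1, Rab11fip1, Rab11fip2, Rab11fip3, Rab11fip4, Rab11fip5, Rilp, Rilpl1, Rilpl2, Plekhm1, Plekhm2, Fyco1, Osbpl1a, Mical1, Mical3, Micall1, Micall2, Ehbp1, Ehbp1l1, Sytl1, Sytl2, Sytl4, Sytl5, Exph5, Unc13d, Golga2, Golga5, Gcc2, Bicd1, Bicd2, Bicdl1, Rabgap1, Acap2, Ocrl, Inpp5b, Pik3c3, Pik3r4, Vps16, Vps18, Vps33a, Vps39, Vps41, Nde1, Ndel1, Zfyve27, Exoc6, Myo5a, Myo5b. The list of Rab phosphorylation held Lrrk1, Lrrk2, Ppm1h, Ppm1j, Ppm1m, Ndr1, Stk38, Stk38l, Tbk1. Dennd2b, Mss4 and Ndr1 are not symbols of the table. Some members that count in the totals of these lists are not reported here by name. Markers were, for cortical excitatory neuron Slc17a7, Neurod6, Cux2, Tbr1, Bcl11b, Camk2a, Nrgn, for inhibitory neuron Gad1, Gad2, Slc32a1, Pvalb, Sst, Vip, for astrocyte Aqp4, Slc1a3, Slc1a2, Aldh1l1, Gja1, Gfap, for oligodendrocyte Mbp, Mog, Mag, Mobp, Cnp, Cldn11, for microglia Cx3cr1, P2ry12, Tmem119, Csf1r, C1qa, C1qb, Aif1, for infiltrating leukocyte S100a8, S100a9, Ccr2, Ly6c2, Ptprc, Cd3e, Itgal, Plac8, for endothelial cell Cldn5, Flt1, Pecam1, Tek, Cdh5, for mural cell and fibroblast Pdgfrb, Rgs5, Acta2, Col1a1, Col1a2, Dcn, for red blood cell Hbb-bs, Hba-a1, Hba-a2, Alas2, for choroid plexus and ependyma Ttr, Kl, Folr1, Ccdc153, for striatal neuron Drd1, Drd2, Adora2a, Ppp1r1b, Rgs9.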

Additional observations from a re-analysis of the deposited data

Results flagged for a closer look

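In 216 tests of a single library against the others of its group (the 6 groups of treatment and hemisphere, for the summed Rab level, the median deviation of the Rabs and the 34 named Rabs), 16 values, 7.41%, stood outside the rest, where chance alone gives about 1 in 20. A value was picked when its gap to the nearest other value took up most of the range of the group.

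In the injected libraries of vehicle mice, Rab11a was highest in mouse J at 56.72 FPKM (next 44.44) and Rab12 lowest in mouse AH at 45.17 FPKM (next 51.47). In their contralateral libraries, mouse L was lowest for Rab31 at 19.7 FPKM (next 32.09) and Rab7b at 0.4613 FPKM (next 0.8034), mouse J for Rab35 at 34.79 FPKM (next 43.3) and mouse AH for Rab3d at 2.663 FPKM (next 3.439).

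In the injected libraries after R33, mouse AD was highest for Rab32 at 4.512 FPKM (next 1.915) and Rab5c at 134.9 FPKM (next 99.86), and mouse K lowest for Rab42 at 0.8596 FPKM (next 1.011). In the contralateral ones mouse O was highest for Rab7b at 1.207 FPKM (next 0.6643).

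In the injected libraries after R55, mouse P was highest for Rab37 at 7.075 FPKM (next 1.263) and Rab42 at 1.772 FPKM (next 1.2), and mouse R lowest for Rab30 at 4.543 FPKM (next 5.71). In the contralateral ones mouse AA was highest for Rab32 at 2.47 FPKM (next 1.521), mouse P for Rab5a at 45.85 FPKM (next 39.16), and mouse R lowest for the summed Rab level at 1665 FPKM (next 1773).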

How the results depend on the processing

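No Rab was called in any comparison under any of 140 alternative fits. Of 3498 values of named Rabs under the alternatives, 34 moved by more than the spread between mice, 251 had the other sign and 0 were called.

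With the trend of expression on gene length removed, the Rab median was -0.014 for R55 against vehicle and -0.0054 for R33 against vehicle, with 19 and 21 of 47 above 0. All tested genes then had medians of 0.0022 and 0.0024. The 95% interval of the difference between the compounds reached 0.137 to either side in the median Rab with all mice, 0.220 in the contralateral hemisphere alone and 0.237 among mice with labels of 2 letters.

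With each mouse left out in turn, the Rab median ran from -0.0027 (without AH) to 0.049 (without J) for R55 against vehicle, from 0.011 (without AH) to 0.066 (without J) for R33 against vehicle, from -0.029 (without P) to 0.0028 (without R) for R55 against R33, and from -0.0039 (without R) to 0.016 (without AE) for the injected against the contralateral hemisphere. Medians over all tested genes in these fits were 0.015 (without AH) and 0.041 (without J) for R55, and 0.0082 and 0.032 for R33. With 1 mouse left out, the interval between the compounds reached 0.132 (without L) to 0.150 (without N) to either side. No Rab was called with any mouse left out, so the counts of calls ran from 0 to 0. Unadjusted counts ran from 1 to 5 for R55, 1 to 10 for R33, 0 to 2 between the compounds, 1 to 3 between hemispheres, 0 to 1 for the R55 interaction and 0 to 0 for the R33 interaction.

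With the replicate block for the mouse, 2 Rabs were at the unadjusted level between hemispheres and 3 in the R55 interaction, and the block changed no call of a Rab. Over all tested genes, the modelled correlation took the calls from 1 to 0 for R55 and from 0 to 1 between hemispheres. Adding the label series to the model left the medians at 0.033, 0.046, -0.013 and 0.011 in the same order. Comparisons within each series and in vehicle mice alone were chosen after seeing the data, and the series with labels of 2 letters has 1 vehicle mouse, which is assumed to vary like the others.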
